A study of Tigriopus californicus with 32 samples.

Results

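This account concerns 74 genes of the Bodega Bay population (BB-N) of the intertidal copepod Tigriopus californicus that were lower after the daily warming to 28° and whose mean rose less than 2-fold, or fell, when copepods kept at a constant 20° were warmed. They were chosen from the expression values themselves. A gene was taken when both of its values at 28° in the variable regime were at most 0.5 times both of its values at 20° in that regime, when its mean at 20° there was at least 10 RPM (reads per 1000000 reads of the scaled library), and when the ratio of mean 28ST to mean 20NV, each with 1 added, was under 2. Of the 17664 genes listed for the variable regime in BB-N, 140 met the conditions on the fall and the level. The other BB-N table listed 139 of these, and the ratio was under 2 for 74 and 2 or more for 65. A further 9 identifiers were to be excluded, of which 5 had met the condition on the fall and 0 met every condition, so that 74 of the 21556 genes listed in any table remained.

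The study raised 4 populations, the northern BB-N and Santa Cruz (SC-N) and the southern San Diego (SD-S) and Bird Rock (BR-S), in a regime alternating every day between 20° and 28° and in a regime held at 20°. RNA was taken at 28°, early in the warm part of the day (28V), and at the end of the cool part (20V) in the variable regime, and in the constant regime after a first transfer to 28° (28ST) and before it at 20° (20NV). Each of the 4 treatments of a population had 2 libraries, each from a dish of 100 whole adults of both sexes. All animals were descendants of field-collected copepods kept for a few generations at 20°. A library averages all tissues of such a pool, so that fewer cells of a type and less RNA per cell cannot be told apart. The 28V and 20V pools were also taken at different times of day, as were the 28ST and 20NV pools. The 2 libraries of a treatment are called a and b here, after the ending of their column names, which do not give the replicate number.

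Copepods, like other arthropods, are covered by a cuticle of chitin fibres and cuticle proteins that the epidermis secretes, and most structural cuticle proteins are made in bursts around the moult. Adult copepods do not moult again. Spatzle proteins are secreted ligands, known in Drosophila to activate the Toll receptor. Cytochrome P450 enzymes oxidise hormones, lipids and foreign compounds, and in arthropods some belong to the path that makes and clears moulting hormones.

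Library depth was taken as the reads of the genes listed in a table, not as all mapped reads. It was between 3653077 and 10652394 reads in the 8 BB-N libraries and between 3647378 and 14509087 over all 32. Library b was the deeper in 16 of 16 treatments. A heat-shock protein 70 gene, TCALIF_04517, had values of 1577 and 1267 in 28V, against 260.2 and 326 in 20V, and of 2003 and 2334 in 28ST, against 24.4 and 41.9 in 20NV, so both kinds of warming were visible in BB-N. In SC-N the 28V library a had the lowest mean correlation with the other libraries of its population, 0.81 over 11979 genes, where the other 7 had 0.86 to 0.90. No sequences are given, since the genome table used here does not hold these identifiers.

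Values below are in RPM after the scaling of each table, library a before library b. By the rule, all 74 genes fell in 28V, and the ratio of mean 28V to mean 20V, each with 1 added, ranged from 0.0544 to 0.487 with a median of 0.255. Mean 20V ranged from 10.05 to 234.5 with a median of 28.2, against a median of 37.7 over the 11853 genes at or above the same level. For reading only, limma on log2(value + 1) with Benjamini-Hochberg adjustment called 45 of the 74 lower, where 0.730% of all genes of the table were called lower. Without the ending of the column name as a block, 7 were called lower, and 0.119% of all genes in either direction. The contrast chose the members, so nothing follows from that count.

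The threshold on the fall lay among like genes. Just inside it were the cuticle protein TCALIF_12219, whose highest 28V value was 0.498 times its lowest 20V value, and TCALIF_05216 at 0.494, described as a venom allergen of wasps. Just outside were 2 spatzle-like genes, comp44992_c0_seq1_30955 at 0.510 and TCALIF_09407 at 0.512. At the limit on the 28ST to 20NV ratio, TCALIF_05216 at 1.99 and TCALIF_12219 at 1.96 were inside, and the cuticle proteins TCALIF_03993 at 2.01 and TCALIF_10283 at 2.02 were outside. At the limit on the level, TCALIF_06113 with a mean 20V of 10.05 and comp37445_c0_seq1_21933 with 10.8 were inside, and TCALIF_09392 and comp42467_c0_seq1_27706 with 9.83 and 9.84 were outside.

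Of the 74 genes, 58 had a description in words, as did 15.8% of the table. The descriptions come from the study's own lists of changed genes, so they are more frequent among genes that changed and are not independent of the rule. The largest named group was cuticle proteins, with 14 members, and 13 members were described as hypothetical proteins. There were 2 spatzle proteins, 2 members described as an spt transcription factor family, 2 proteases, 1 bcs-1 protein and 1 transporter. The lists for chitin and peritrophin, lectins, heat-shock proteins, muscle, peroxidases and DNA-binding regulators had 0 members, although 6 lectins met the condition on the fall and had a 28ST to 20NV ratio of 2 or more.

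All 14 cuticle protein members fell to between 0.0794 and 0.306 of their 20V level, with a median of 0.205. TCALIF_13797, described as cuticle protein 7, had values of 30.8 and 20.8 in 28V, against 269 and 145 in 20V. In the constant regime it had 281 and 56.3 in 28ST, against 104 and 67.2 in 20NV. Its 28V values were thus the lowest of the 8 libraries, its 20V values were above both 20NV values, and its 28ST values fell on both sides of those of 20NV.

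A like arrangement was seen in comp48310_c0_seq2_36984, a cuticle protein precursor, with 38.6 and 15.2 in 28V, against 258 and 155 in 20V. It had 239 and 38.1 in 28ST, against 97.1 and 66.5 in 20NV. Contig59_58, a cuticular protein, had 43.4 and 24.6 in 28V, against 183 and 119 in 20V, and 269 and 77.4 in 28ST, against 126 and 52.8 in 20NV. In both genes the 28ST library a was above the lower 20V value, and library b was no higher than the higher 20NV value. TCALIF_12953 had 47.8 and 23.3 in 28V, against 228 and 145 in 20V, and 152 and 52.5 in 28ST, against 126 and 86.2 in 20NV. TCALIF_08832 had 23.0 and 8.42 in 28V, against 149 and 80.9 in 20V, and 101 and 19.3 in 28ST, against 61.6 and 44.5 in 20NV. Both are also described as cuticle protein 7, so reads of near-identical copies may be divided among these genes, although only uniquely mapped reads were counted. The deepest fall in the group was that of TCALIF_12032, which had 0.170 and 0.455 in 28V, against 17.1 and 13.9 in 20V, and 13.5 and 0.787 in 28ST, against 4.65 and 3.74 in 20NV.

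**Figure D1:**
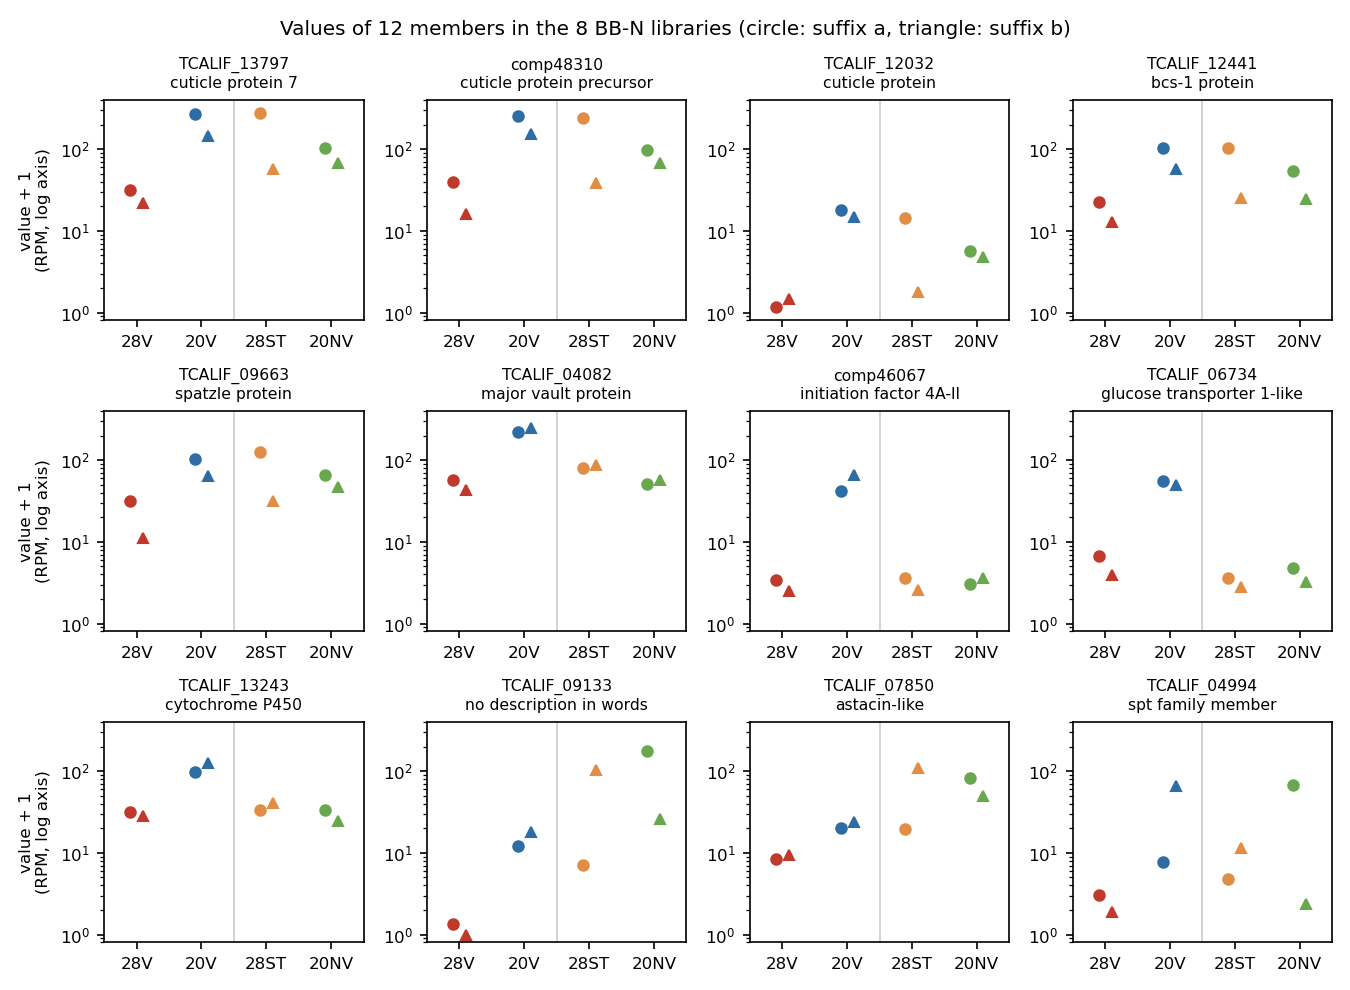
Values of 12 members in the 8 BB-N libraries, as RPM with 1 added on a log axis; circles are library a and triangles library b, and the line in each panel divides the variable regime from the constant one. The 28V values of TCALIF_13797 are 30.8 and 20.8 and its 28ST values are 281 and 56.3, and library a is also the higher in 28ST of the other cuticle, bcs-1 and spatzle genes, whereas comp46067 and TCALIF_06734 are high in the 20V libraries alone.

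The 28V values, which the rule took for being low, were also set beside the constant regime. In 13 of the 14 cuticle protein members, and in 46 of all 74 members, both 28V values were below both 20NV values, and 5 members had both above, where 14.3% and 30.4% of the 17164 genes in both tables did so. Since the rule used these 28V values, nothing is read from the counts. Values of the 2 regimes come from tables scaled separately, and the same library differed by 1.28% to 5.52% between tables.

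Summed over the 14 cuticle protein members, the value was 288 and 145 in 28V, against 1583 and 957 in 20V, and 1461 and 361 in 28ST, against 738 and 500.4 in 20NV. The 28ST libraries thus differed 4.04-fold from each other, where the libraries of the other BB-N treatments differed 1.47-fold to 1.99-fold. The other 79 cuticle protein genes listed summed to 3437 and 2676 in 28V, against 11399 and 4597 in 20V. In the constant regime the other 78 listed summed to 15672 and 4398 in 28ST, against 5755 and 4042 in 20NV. Their libraries differed 3.56-fold in 28ST, 2.48-fold in 20V, 1.42-fold in 20NV and 1.28-fold in 28V. The division in 28ST was thus not particular to the members. Of these 79, limma called 22 lower and 0 higher in 28V, where 129 and 17 of all 17664 genes were called. In 16 of the 79 the condition on the fall was met by these same values, and the descriptions come from lists of changed genes. Nothing is read from that count.

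The mean ratio that defined the members concealed a division between libraries. The 28ST library a was the shallowest of BB-N, with 3653077 reads. Its mean correlation with the other 7 was the lowest, 0.917, where the others had 0.919 to 0.936. Whether this bears on the division was not tested. In 11 of the 14 cuticle protein members, 28ST exceeded 20NV in library a and was below it in library b, as in 21.7% of all genes. The ratio was 2 or more in 8 of 14 by library a and in 0 of 14 by library b. A total of 30 cuticle protein genes met the conditions on the fall and the level, and the limit at 2 separated 14 members from 16 others. With 1 added, the 28ST to 20NV ratio of the 14 members had a median of 2.13 in library a and 0.70 in library b. In the 16 others these medians were 3.65 and 1.24, and 12 of the 16 were above 1 in library b. The limit used the means of these same values, so lower ratios in the 14 were built into the choice. The count of 11 of 14 is likewise not independent of the rule. The limit on the response to the first transfer held for the means of the cuticle protein members and not for each library.

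The spatzle protein TCALIF_09663 had 31.1 and 10.2 in 28V, against 103 and 63.2 in 20V, and 125 and 30.6 in 28ST, against 65.1 and 45.6 in 20NV. TCALIF_09662, also a spatzle protein, had 10.5 and 4.32 in 28V, against 41.3 and 26.5 in 20V, and 35.4 and 8.92 in 28ST, against 25.6 and 15.1 in 20NV. The bcs-1 protein TCALIF_12441 had 21.8 and 11.8 in 28V, against 103 and 56.4 in 20V, and 104 and 24.0 in 28ST, against 54.0 and 23.8 in 20NV. Both spatzle genes were above 20NV in library a of 28ST and below it in library b, and the bcs-1 gene was above it in library a and level with it in library b. Among hypothetical proteins, TCALIF_13283 had 40.2 and 16.6 in 28V, against 221 and 136 in 20V, and 240.1 and 72.1 in 28ST, against 117 and 83.6 in 20NV. TCALIF_13962 differed, with 31.0 and 13.5 in 28V, against 114 and 71.7 in 20V, and 44.8 and 20.34 in 28ST, against 75.0 and 57.5 in 20NV. It was thus lower in both 28ST libraries than in both 20NV libraries. The undescribed comp42425_c1_seq1_27660 had 12.9 and 11.2 in 28V, against 191 and 84.6 in 20V, and 75.3 and 5.51 in 28ST, against 52.0 and 10.9 in 20NV, so that library a was the higher in both treatments of the constant regime.

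A second group of members was high at 20° in the variable regime and low in the other 6 libraries. The initiation factor 4A-II gene comp46067_c0_seq1_32536, an RNA helicase of translation initiation, had 2.38 and 1.48 in 28V, against 41.5 and 64.3 in 20V, and 2.64 and 1.57 in 28ST, against 2.07 and 2.65 in 20NV. The sodium-dependent glucose transporter TCALIF_06734 had 5.78 and 2.96 in 28V, against 54.5 and 48.8 in 20V, and 2.64 and 1.84 in 28ST, against 3.79 and 2.19 in 20NV. Their ratios of mean 20V to mean 20NV, each with 1 added, were 15.2 and 12.5, the highest of the 74. For them the fall in 28V brought the level to that of the constant regime.

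The major vault protein TCALIF_04082, the main protein of the vault ribonucleoprotein particle, had the highest mean 20V value of all members. It had 57.2 and 42.0 in 28V, against 219 and 250 in 20V, and 78.8 and 86.4 in 28ST, against 50.4 and 56.2 in 20NV. The cytochrome P450 TCALIF_13243 had 30.5 and 27.8 in 28V, against 96.2 and 125 in 20V, and 32.2 and 40.3 in 28ST, against 32.7 and 23.5 in 20NV. In both genes the 28V values lay near those of 20NV, and the libraries of each treatment lay close together.

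TCALIF_13289, described as leukocyte receptor cluster member 9, had 8.51 and 4.44 in 28V, against 80.8 and 97.4 in 20V, and 16.1 and 23.5 in 28ST, against 11.9 and 11.1 in 20NV. The undescribed Contig3176_4899 had 27.7 and 14.7 in 28V, against 121 and 116 in 20V, and 16.7 and 13.8 in 28ST, against 14.3 and 15.5 in 20NV. The serine protease Contig5533_7102 had 3.06 and 2.96 in 28V, against 7.64 and 17.8 in 20V, and 2.64 and 2.49 in 28ST, against 2.58 and 2.10 in 20NV. In all 3 every library outside 20V was below the lower 20V value.

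Over all members the ratio of mean 20V to mean 20NV was above 1 in 67 of 74 and at least 2 in 33. The 20V and 20NV values did not overlap in 54 of 74, with 20V higher in 50 and lower in 4, and they did not overlap in 41.9% of all genes of that table. limma called 31 higher and 1 lower, where 1.16% and 1.32% of all genes were called. Without the block 6 were called, all higher, where 0.129% of all genes were called. The rule took genes that were high in these same 20V libraries, so the excess is in part built into the choice and was not tested. The median ratio was 2.08 in the cuticle protein members and 1.91 in the other 60.

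**Figure D2:**
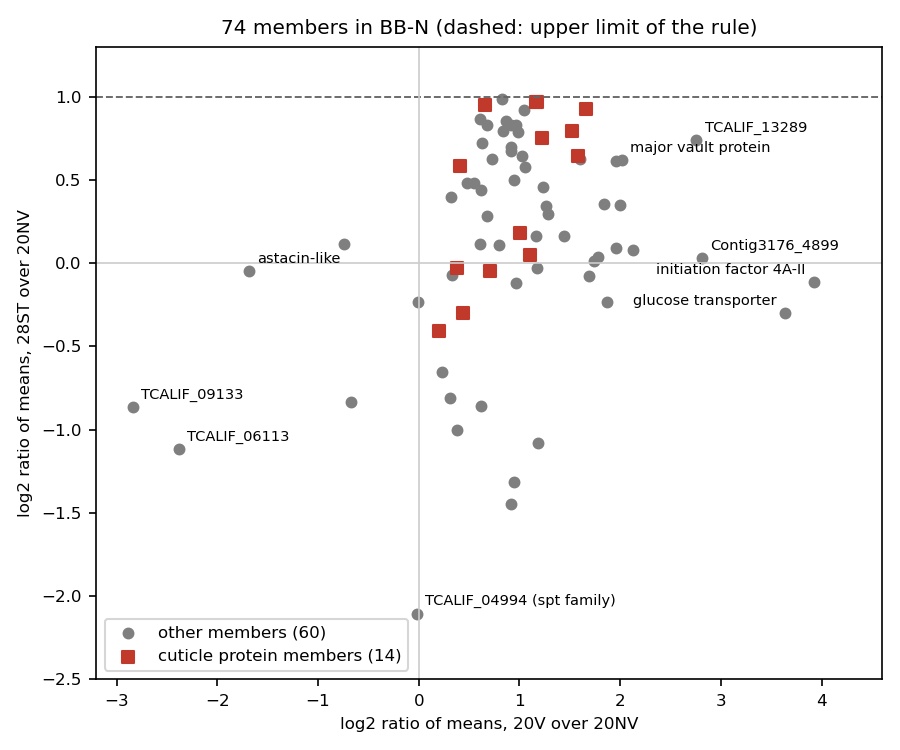
The 74 members in BB-N by the log2 ratio of mean 20V to mean 20NV (horizontal) and of mean 28ST to mean 20NV (vertical), each mean with 1 added; squares are the 14 cuticle protein members, circles the 60 others, and the dashed line is the upper limit set by the rule. The members run up to the limit, with 38 of the 74 within 1.5-fold of equal 28ST and 20NV means, and 67 of the 74 lie right of 0.

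The rule set no lower limit on the response to the first transfer. The ratio of mean 28ST to mean 20NV was 0.5 or less in 6 members, within 1.5-fold of 1 in either direction in 38, and 1.5 or more in 25, with a median of 1.22. Both 28ST values were below both 20NV values in 9 members and above in 6, where 20.7% and 18.9% of all genes were. limma called 0 of 74 (4 lower and 7 higher at an unadjusted p under 0.05, where 2.00% and 4.87% of all genes were), where 0.327% of all genes were called. The rule had removed genes with a mean ratio of 2 or more in these same values. A lack of rises is thus in part built into the choice, and nothing is read from these counts. The undescribed comp42941_c0_seq1_28273 had 5.78 and 5.46 in 28V, against 15.9 and 13.6 in 20V, and 1.76 and 1.97 in 28ST, against 8.43 and 5.20 in 20NV. That gene was lower in both 28° treatments than in the 20° treatment of the same regime.

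The gene with the lowest ratio, 0.232, was TCALIF_04994 of the spt family. It had 2.04 and 0.910 in 28V, against 6.82 and 65.1 in 20V, and 3.81 and 10.4 in 28ST, against 66.3 and 1.37 in 20NV. Single libraries of 20V and of 20NV set its means, and no direction can be read for the constant regime. TCALIF_05297 of the same family had 5.27 and 2.73 in 28V, against 24.6 and 14.8 in 20V, and 13.8 and 5.25 in 28ST, against 15.1 and 15.9 in 20NV.

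Some members had a higher mean in 28ST or 20NV than in 20V, such as Contig59_58 (173 in 28ST, against 151 in 20V). In the 3 given next, both means of the constant regime were above that of 20V. TCALIF_09133, which has no description in words, had 0.340 and 0 in 28V, against 11.1 and 17.3 in 20V, and 6.15 and 103 in 28ST, against 176 and 24.7 in 20NV. TCALIF_06113, likewise undescribed, was listed at 0 in both 28V libraries, against 5.99 and 14.1 in 20V, and had 0.879 and 46.6 in 28ST, against 90.4 and 14.9 in 20NV. The astacin-like metallopeptidase TCALIF_07850 had 7.49 and 8.53 in 28V, against 19.0 and 23.1 in 20V, and 18.4 and 108 in 28ST, against 81.7 and 48.6 in 20NV. In all 3 the 28ST library b was the higher, opposite to the cuticle proteins, and the 20NV library a was the higher. Over the 74 members, 28ST was above 20NV in library a and below it in library b in 29, and the reverse held in 17, where 21.7% and 23.1% of all genes did so. The count of 17 was thus at the share of all genes.

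The other populations took no part in the choice, so the same comparison could be tested there. No member was called lower in 28V in any of them. For SD-S this does not exclude large changes. The heat-shock gene TCALIF_04517 was itself not called there (log2 fold change 2.37, adjusted p = 0.102, limma). In SC-N, 72 of the members were listed, and limma called 4 higher and 0 lower, where 0.519% and 1.52% of all genes were called. At an unadjusted p under 0.05, 17 were higher and 2 lower (2.18% and 6.39% of all genes). In SD-S, 69 were listed and 0 were called, as was 0.00% of the table. At an unadjusted p under 0.05, 9 were higher and 4 lower (2.45% and 1.78% of all genes), and edgeR called 0 by its quasi-likelihood test and 5 higher by its likelihood ratio test, and DESeq2 2 higher. In BR-S, 68 were listed and 0 were called, where 0.188% of all genes were called, with 8 higher and 6 lower at an unadjusted p under 0.05 (2.93% and 2.88% of all genes). No count test was run for SC-N and BR-S.

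The median log2 fold change of the members was 0.24 in SC-N, -0.09 in SD-S and 0.15 in BR-S, against medians of 0.01, -0.01 and -0.01 over all genes. Of the 65 members listed in all 3, 7 had a negative fold change in all 3 and 14 a positive one. Both 28V values were below both 20V values in 3 of 72 in SC-N, 9 of 69 in SD-S and 16 of 68 in BR-S, where 17.0%, 13.0% and 16.0% of all genes were. Both were above in 7, 12 and 1 of them, where 13.1%, 12.6% and 13.4% of all genes were. A difference in this response between pairs of these 3 populations was called for 0 of the 65 to 69 members tested (limma; 0, 1 and 3 at an unadjusted p under 0.05) and for 0 genes of 16037 to 16285. The difference from BB-N was not tested, because the choice fixed the direction there.

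Of the 4 calls in SC-N, 3 rested mainly on the 28V library a, the library that stood apart. The log2 fold change of the other gene, TCALIF_01032, was 1.60 without that library. TCALIF_13773, described as a multidrug resistance-associated protein, an ABC transporter, had 115 and 2.69 in 28V, against 4.40 and 2.84 in 20V (log2 fold change 2.18 ± 0.46 SE, adjusted p = 0.000328, limma). The cytochrome P450 TCALIF_04711 had 158 and 13.3 in 28V, against 22.6 and 12.8 in 20V (1.40 ± 0.40, adjusted p = 0.0315). TCALIF_11691, described as an E3 ubiquitin ligase, had 47.2 and 0.798 in 28V, against 2.72 and 1.37 in 20V (1.65 ± 0.47, adjusted p = 0.0250). In these 3 genes the 28V and 20V values overlapped. They did not overlap in TCALIF_01032, a protein of unknown role, with 15.4 and 13.4 in 28V, against 2.30 and 5.78 in 20V (1.70 ± 0.46, adjusted p = 0.0170). Without the 28V library a, 0 members were called in SC-N and 3 of these 4 fold changes turned negative. Without the 28V library b, 11 were called (1 lower and 10 higher), where 5.25% of all genes were called, and without either 20V library 0 were called. Also without the suffix as a block 0 were called, and 0 among genes with a mean of at least 10.

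In SD-S, leaving out the 28V library a gave 1 call, lower, and leaving out library b gave 6, all higher, where 0.239% and 0.606% of all genes were called. In BR-S, leaving out the 20V library a gave 26 calls, all higher, and leaving out library b gave 2, 1 in each direction, where 1.13% and 1.14% of all genes were called. With 3 libraries in place of 4, the lone library is assumed to vary like the rest.

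These members varied between libraries of the same treatment more than most genes. Among genes with a mean of at least 10, the absolute log2 difference between libraries a and b had a median over the members of 0.44 to 2.66 in the 12 treatments of the other populations, and over all genes of 0.17 to 0.62. The members' median was the larger in 12 of 12. A difference of at least 2-fold between the 2 libraries was found in a median of 43.5% of members per treatment (4.17% to 88.7%) and 4.11% of all genes (1.55% to 26.7%). In BB-N the members' median was 0.71 in 28V, against 0.61 in 20V, and 1.61 in 28ST, against 0.55 in 20NV. Over all genes these medians were 0.17, 0.18, 0.20 and 0.22.

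The summed value of the cuticle protein members varied between libraries of a treatment. It was 132 and 1198 in 28V of SC-N, against 272 and 564 in 20V, and 384 and 521 in 28ST, against 111 and 1556 in 20NV. In BR-S it was 737 and 580.0 in 28V, against 1234 and 167 in 20V, and 1186 and 921 in 28ST, against 736 and 2130 in 20NV. In SD-S it was 752 and 251 in 28V, against 348 and 438 in 20V, and 356 and 291 in 28ST, against 203 and 209 in 20NV. The libraries of a treatment thus differed up to 14.0-fold, in 20NV of SC-N, and as little as 1.03-fold, in 20NV of SD-S. Between 28V and 20V the sign of the difference was opposite in libraries a and b for 12 of 14 cuticle protein members in SC-N, 11 of 14 in SD-S and 13 of 14 in BR-S, where 42.8%, 52.5% and 49.7% of all genes had opposite signs. In BB-N the sign was the same in all 14, as the rule required, and the 2 libraries differed 1.99-fold in 28V, against 1.65-fold in 20V.

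**Figure D3:**
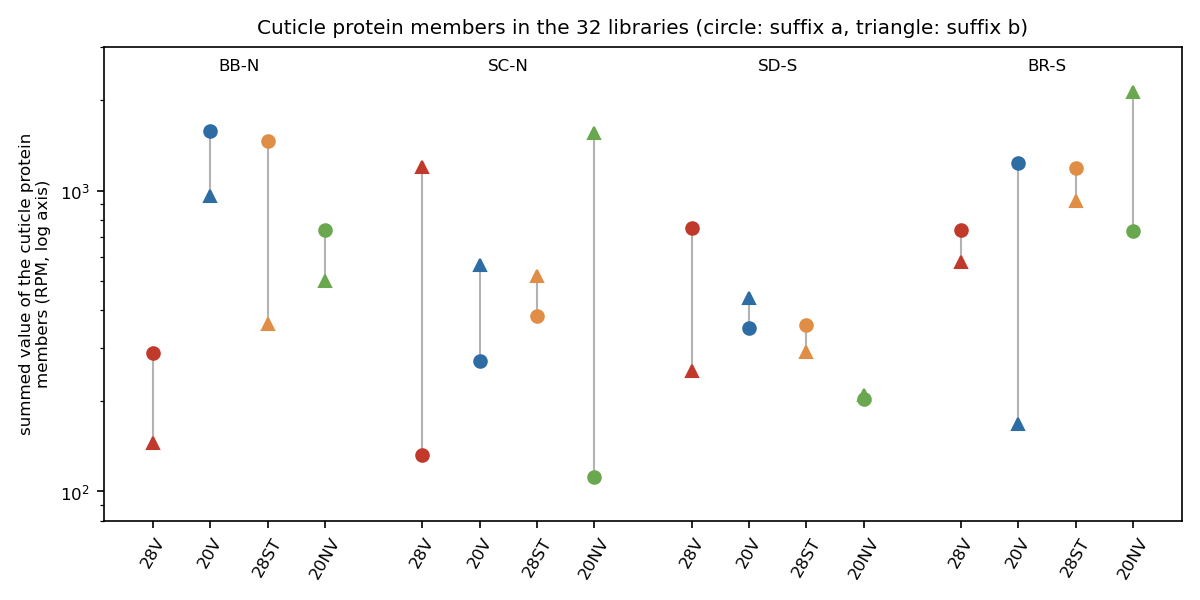
Summed value of the 14 cuticle protein members in each of the 32 libraries, in RPM on a log axis; circles are library a, triangles library b, and a grey line joins the 2 libraries of a treatment. The sums are 288 and 145 in 28V of BB-N, below 1583 and 957 in 20V, whereas in SC-N the 28V libraries alone span 132 to 1198.

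The TCALIF_13797 gene showed this in BR-S, with 43.4 and 30.4 in 28V, against 69.3 and 1.97 in 20V. In SC-N it had 7.43 and 199 in 28V, against 31.0 and 69.9 in 20V. In both populations the 2 treatments overlapped.

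Of the members high in 20V of BB-N, 2 are given here in the other populations. comp46067_c0_seq1_32536 had 125 and 1.60 in 28V of SC-N, against 13.2 and 4.11 in 20V, and in SD-S 21.7 and 31.4 in 20V, against 36.4 and 4.92 in 20NV. TCALIF_13289 had 49.9 and 4.94 in 28V of SC-N, against 14.0 and 8.91 in 20V, and in SD-S 18.0 and 37.4 in 20V, against 41.7 and 5.49 in 20NV. In both genes the 28V library a of SC-N and the 20NV library a of SD-S were the highest of those named. In BR-S comp46067_c0_seq1_32536 had 5.71 and 4.19 in 28V, against 5.75 and 5.57 in 20V, so no library of these treatments stood apart for that gene.

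**Figure D4:**
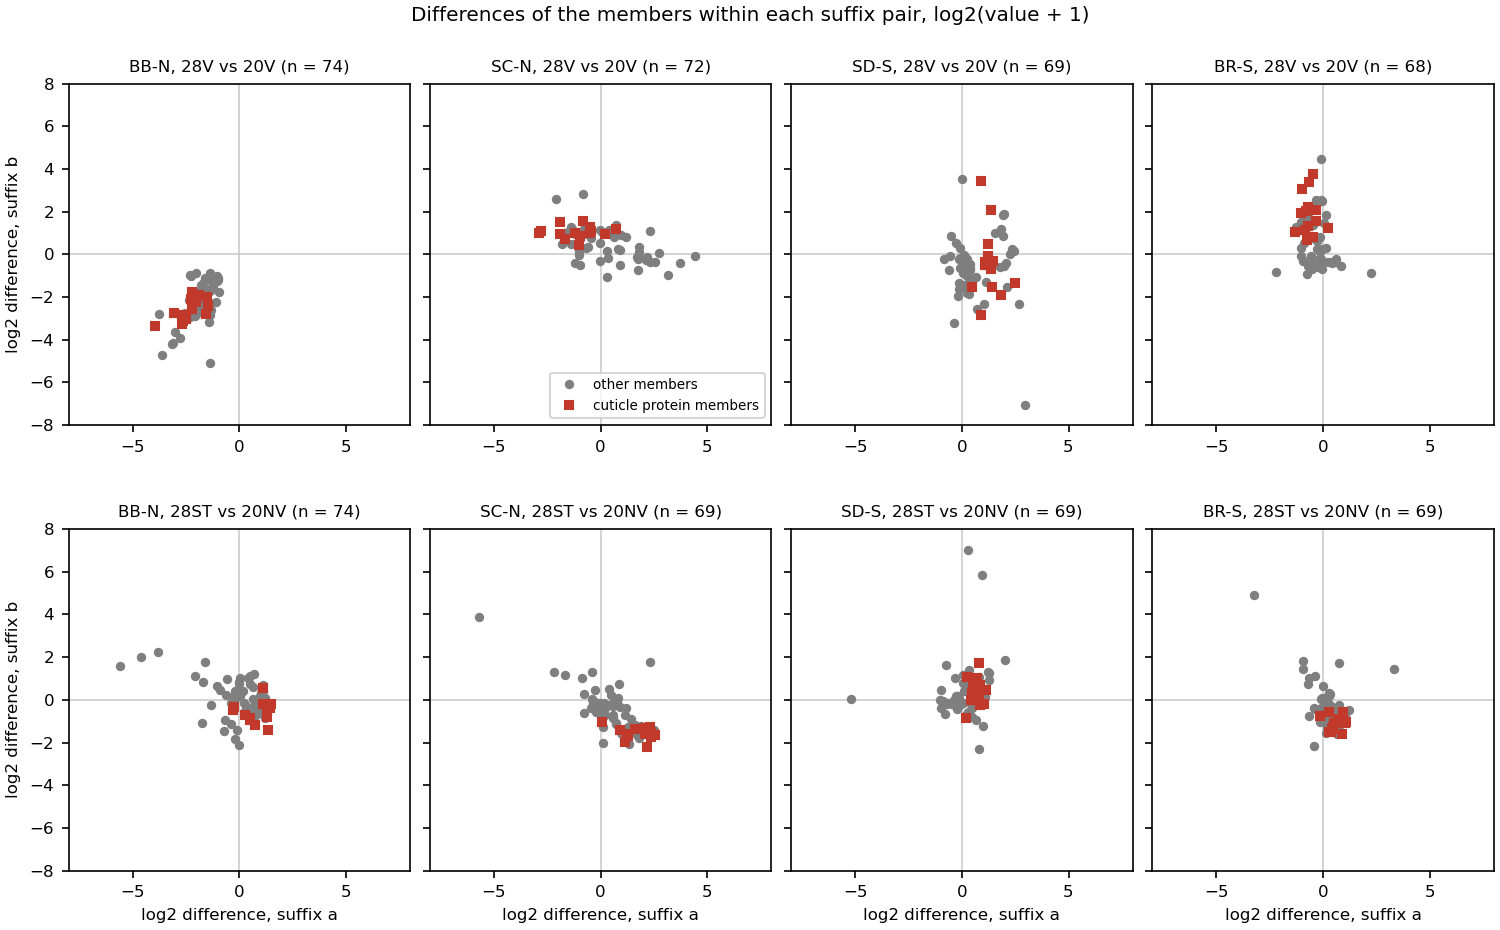
Difference in log2(value + 1) of each member listed, in library a (horizontal) and library b (vertical), for 28V minus 20V (upper row) and 28ST minus 20NV (lower row) in the 4 populations; squares are cuticle protein members and circles the others. All 74 lie lower left in the first panel, as the rule required. In the other populations the cuticle protein members lie mostly in quadrants of opposite sign. The exception is SD-S in the lower row, where 5 of 14 do so.

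In 28ST vs 20NV, limma called 0 of 69 members in each of SC-N, SD-S and BR-S, where 0.0222%, 0.0280% and 0.120% of all genes were called. At an unadjusted p under 0.05, 3 members were higher and 0 lower in SC-N (2.16% and 0.670% of all genes), 19 higher and 3 lower in SD-S (3.32% and 1.54%), and 2 higher and 2 lower in BR-S (2.98% and 2.36%). For SD-S edgeR called 4 higher by its likelihood ratio test and 0 by its quasi-likelihood test, and DESeq2 1 higher. The median log2 fold change was -0.01 in SC-N, 0.27 in SD-S and -0.12 in BR-S. In SC-N a single library turned the count: 25 members were called, all lower, without the 20NV library a, and 22, all higher, without the 20NV library b, where 0.958% and 2.09% of all genes were called. In SD-S, 2 to 5 were called, where 0.353% to 0.459% of all genes were, without the 20NV library a, the 28ST library a or the 28ST library b. In SD-S both 28ST values exceeded both 20NV values in 18 of 69 members, where 9.64% of all genes did so, and were below in 1, where 9.73% were.

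In 20V vs 20NV, 0 of 72 members were called in SC-N and 0 of 69 in BR-S, where 0.136% and 0.00% of all genes were called. At an unadjusted p under 0.05, 8 members were higher and 13 lower in SC-N (17.3% and 14.3% of all genes), and 2 higher and 3 lower in BR-S (1.51% and 1.71%). In BR-S edgeR called 2 lower by its likelihood ratio test and 0 by its quasi-likelihood test, DESeq2 called 0, and without the 20V library a 1 was called lower, where 0.0114% of all genes were called. In SC-N, 5 were called higher without the 20NV library b, where 1.70% of all genes were called. Without the TMM factors 11 were called in SC-N (10 lower and 1 higher), where 6.48% of all genes were called.

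In SD-S, limma called 13 of 66 members higher and 2 lower in 20V, where 1.40% and 0.496% of all genes were called. TCALIF_00163, undescribed, had 56.6 and 75.8 in 20V, against 13.2 and 11.5 in 20NV (log2 fold change 2.32 ± 0.32 SE, adjusted p = 1.15e-10, limma). The cuticular protein Contig59_58 had 193 and 202 in 20V, against 58.2 and 45.7 in 20NV (1.91 ± 0.27, adjusted p = 4.77e-10). TCALIF_05216 had 14.1 and 19.5 in 20V, against 4.22 and 4.45 in 20NV (1.72 ± 0.38, adjusted p = 0.000673), and comp57687_c0_seq1_44726, a hypothetical protein, had 6.98 and 10.03 in 20V, against 1.86 and 2.37 in 20NV (1.60 ± 0.39, adjusted p = 0.00407). In these 4 genes, as in BB-N, the mean was higher in 20V than in 20NV, and in SD-S the groups did not overlap. TCALIF_04711 was also called (1.95 ± 0.27, adjusted p = 3.02e-10), but it had 135 and 226 in 20V, against 234 and 7.76 in 20NV, so that the libraries overlapped and the direction was opposite in a and b.

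The same held for the glucose transporter TCALIF_06734, with 24.3 and 54.0 in 20V, against 58.7 and 3.78 in 20NV, and for the bcs-1 protein TCALIF_12441, with 4.66 and 1.64 in 20V, against 2.70 and 23.5 in 20NV. In this table, as in 28V vs 20V of SC-N, limma gave all genes of a level the same spread, although the members' libraries differed more than those of most genes. Calls of genes whose libraries overlap rest on that setting. The count fell to 8 without the 20NV library b, 4 without the 20V library a, 1 without the 20V library b, and 2 without the block, where 1.03%, 0.524%, 0.457% and 0.374% of all genes were called. edgeR called 13 by its quasi-likelihood test and 7 by its likelihood ratio test, and DESeq2 called 2.

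The members not listed in 28V vs 20V numbered 2 in SC-N, 5 in SD-S and 6 in BR-S, since the authors kept genes with enough reads in a table. TCALIF_06113 was absent from all 3.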

How the data were processed

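The authors trimmed single-end, unstranded reads and mapped uniquely, in CLC Genomics Workbench, to genomic transcripts and then to de novo transcripts of each population. Without strand, reads of overlapping genes cannot be told apart. They kept genes reaching a minimum level in enough of the 4 libraries of each pairwise table, and deposited a signal per gene, reads per 1000000 reads of the TMM-scaled library (RPM) (edgeR, per the labels, version not given in the sources used here). All 12 tables were scaled separately. Every value was a whole multiple of the worth of 1 read, within 0.01 read, in 100% of values. The authors' own fold changes and p-values were not used, and 4 value columns of the deposited description list repeat others.

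Each table was fitted by limma 3.58.1 (R 4.3.3) to log2(value + 1), with a trended prior variance. The ending of the column name entered as a blocking term, standing for the lane in the study's model. This leaves 1 residual degree of freedom, and adjusted p-values (Benjamini-Hochberg, two-sided, threshold 0.05) cover the whole table. limma was the test set for these scaled values. edgeR 4.0.16 and DESeq2 1.42.0 were run as alternatives on reads recovered in 5 tables, and not in the 7 others, where the lowest value of at least 1 column was 2 to 5 reads, so that a single read was not seen directly there. The scripts were tested on simulated data. The replicates are separate dishes. Correlations of same-ending deviations ranged from -0.35 to 0.49 over the 12 tables and exceeded 0.1 in 8.

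The members, the lists, made from the wording of descriptions, and the tests were chosen with earlier results of these data known. Genes were named where they had the 10 highest mean 20V values, the 10 deepest falls, the 2 highest values of a list, a place just inside or outside a threshold, a call in another population (the 5 largest where more than 5) or an extreme ratio, or where the study names them. Counting error, and the 2 libraries per treatment, limit precision.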

Additional observations from a re-analysis of the deposited data

Results flagged for a closer look

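Among the members called in another population, 2 moved in opposite directions in every pair of libraries of the 2 populations for 28V vs 20V. For TCALIF_01032 the log2 fold change was 1.70 in SC-N and -1.98 in BB-N. For the cytochrome P450 TCALIF_04711 it was 1.40 in SC-N and -1.79 in BB-N, and in library b of SC-N its values were 13.3 in 28V, against 12.8 in 20V. The direction in BB-N was fixed by the choice of members, and the difference between the populations was not tested.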

How the results depend on the processing

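The rule gave 71 genes without the added 1 (71 of the 74), 83 without TMM factors (73 of the 74) and 72 under joint median-ratio scaling of the 8 libraries (72 of the 74), an alternative chosen after seeing the data in place of joint TMM scaling, which was not run. By library a of each treatment alone it gave 183 genes (49 of the 74), and by library b alone 272 (62 of the 74). The replicate block mattered in 2 comparisons outside BB-N: without it, members called numbered 0 rather than 4 (SC-N, 28V vs 20V) and 2 rather than 15 (SD-S, 20V vs 20NV). In BB-N, where this was added after seeing the data, the counts without it were 7 rather than 45 (28V vs 20V), 0 in both fits (28ST vs 20NV) and 6 rather than 32 (20V vs 20NV). In the other 7 comparisons outside BB-N the count was 0 with and without it. In BR-S for 20V vs 20NV same-ending deviations correlated at -0.35, and the crossed pairing, also added after seeing the data, gave 4 calls, against 0. With a mean of at least 10, 0 members were called in SC-N for 28V vs 20V. Without TMM factors 11 were called in SC-N for 20V vs 20NV. edgeR's likelihood ratio test called 5 in SD-S for 28V vs 20V, 4 for 28ST vs 20NV and 7 for 20V vs 20NV, and 2 in BR-S for 20V vs 20NV. DESeq2 called 2, 1 and 2 in the 3 SD-S comparisons. Without the variance trend 9 were called in SD-S for 20V vs 20NV. Count tests were not run in the other 7 tables, 5 of them of other populations than BB-N. Leaving out 1 library moved the calls in SC-N over 0 to 11 for 28V vs 20V, 0 to 25 for 28ST vs 20NV and 0 to 5 for 20V vs 20NV. In SD-S the ranges were 0 to 6, 0 to 5 and 1 to 16, and in BR-S 0 to 26, 0 to 0 and 0 to 1. Log2 fold changes that changed sign without 1 library were those of TCALIF_04711 (-0.34 to 3.13), TCALIF_11691 (-0.72 to 4.02) and TCALIF_13773 (-0.30 to 4.67) (these 3 in SC-N, 28V vs 20V), and those of TCALIF_04711 (-0.42 to 4.33), TCALIF_06734 (-0.68 to 2.96) and TCALIF_12441 (-2.66 to 0.063), all in SD-S, 20V vs 20NV. With 2 libraries per treatment and 1 residual degree of freedom, small changes were not detectable, and in SD-S large ones could also be missed. There the heat-shock gene TCALIF_04517 had a log2 fold change of 2.37 in 28V vs 20V (adjusted p = 0.102, limma). In 28ST vs 20NV it had 4.94 (adjusted p = 0.107, limma). In BB-N, SC-N and BR-S that gene was called in both comparisons. A lack of calls in SD-S thus does not exclude large changes.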
